A study of Mus musculus with 12 samples.

Results

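The genes described here are leukocyte surface antigens and the genes of the major histocompatibility complex (MHC), as they were measured in mouse liver before and during fasting. They were chosen by name, as probes called Cd with a number, H2-, Fcgr, Fcer, Ly with a number, Tlr, Ptprc, Clec, Ms4a, Klr, Csf1r, Lyzs, Emr1 or 1 of 4 integrin names. No measured value was part of this rule, but the members were chosen with earlier results of these data known. Of 20280 probes on the array, 79 had such a name, for 66 gene names. Male FVB mice of 6 weeks were fed, or had their chow taken away 12, 24 or 72 hours before they were killed in the morning. Each group was measured on 3 arrays, each array carried RNA of 2 livers labelled with Cy3, and RNA of 6 fed livers labelled with Cy5 was the common reference on all 12 arrays. Values are log2 ratios of a liver pool over that reference, so that 0 is the level of the fed reference and -1 is 2-fold below it. An SD is between pools and does not give the spread between mice. In whole liver, fewer leukocytes and less RNA per leukocyte cannot be told apart.

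MHC class I molecules present peptides from inside a cell and are made by nearly all cells, hepatocytes included. MHC class II molecules present peptides taken up from outside and are made by B lymphocytes, dendritic cells and macrophages, which in liver are chiefly the Kupffer cells lining the sinusoids. Fc receptors bind antibodies, Toll-like receptors bind microbial products, and most CD antigens are proteins by which leukocyte types are told apart. The surface antigens thus trace resident macrophages, lymphocytes and dendritic cells, which are a minority of the cells of the organ. Several names in the set belong to other kinds of cell: H2-Ke2, H2-Ke4 and H2-Ke6 are housekeeping genes that lie in the MHC region, H2-Bf is complement factor B, a plasma protein of hepatocytes, and Cd9, Cd36, Cd81 and Cd151 are found on many cell types.

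The promoters of MHC genes share short sequences, of which the Y box (ATTGG, or CCAAT on the other strand) and the interferon-stimulated element (TTTC, any 2 bases, then TTTC again) were searched on both strands. RefSeq windows of 300 bases on the mouse build GRCm38.p6, 250 before and 50 after the start of transcription, were found for 48 of 64 member genes with a current symbol. For both motifs a gene was counted if any of its windows held the letters (59 windows for the 48 genes). The share of members is thus per gene and that of the background per window. The Y box letters were in 16 of the 48 genes, which is 33.3%, against 37.4% of all 32851 windows. The interferon-stimulated element was in 3 of the 48 genes, against 3.44% of all windows. All 3 class II genes with a window (H2-Aa, H2-Eb1 and H2-DMa) and all 3 class I genes (H2-D1, H2-T22 and H2-T23) held the Y box letters, H2-DMa in 1 window and not in the other. H2-T22 and H2-T23 held the interferon-stimulated element as well. H2-Ab1 had no entry. Stretches before the start of 4 of these genes follow, 5′ to 3′ along the gene, with these motifs in capitals. A match of so few letters is common and is given as a description.
H2-Aa (chr17:34287824-34287943, minus strand, bases 120 to 1 before the start): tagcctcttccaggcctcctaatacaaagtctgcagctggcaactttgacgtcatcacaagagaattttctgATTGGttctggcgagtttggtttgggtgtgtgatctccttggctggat
H2-Eb1 (chr17:34305747-34305866, plus strand, bases 120 to 1 before the start): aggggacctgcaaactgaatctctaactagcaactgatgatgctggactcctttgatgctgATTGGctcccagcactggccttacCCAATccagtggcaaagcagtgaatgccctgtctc
H2-D1 (chr17:35262974-35263093, plus strand, bases 120 to 1 before the start): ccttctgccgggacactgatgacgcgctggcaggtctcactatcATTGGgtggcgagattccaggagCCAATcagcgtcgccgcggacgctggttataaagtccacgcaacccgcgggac
H2-T22 (chr17:36042792-36042952, minus strand, bases 210 to 50 before the start): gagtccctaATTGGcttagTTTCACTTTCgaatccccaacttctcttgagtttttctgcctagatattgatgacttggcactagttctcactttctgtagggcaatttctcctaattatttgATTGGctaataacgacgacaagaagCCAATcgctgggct

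The arrays differed in quality in a way that bears on every result. Median sample signal over local background, over all probes, was 3.5 on replicate 3 of the 24 h group and 4.72 on replicate 2 of the 12 h group, and lay between 5.34 and 10.6 on the other 10 arrays. For 63 of the 79 members, the value farthest from the member's median over arrays was on 1 of these 2 low-signal arrays. On replicate 2 of the 12 h group the members ranged from -2.40 to 2.42, with an SD of 1.16 over members, whereas on the 72 h arrays that SD lay between 0.25 and 0.33. The image files were quantified on 3 days. All 72 h arrays and replicates 2 and 3 of the fed group shared the first day, and both low-signal arrays shared the third day with replicate 1 of the fed group. No fed array was quantified on the second day. Spots marked as outliers by the scanner software were left out, which removed 44 of 948 member values, of which the fed replicates 2 and 3 held 12 and 9. The markers of the labelled tissue were bright, with albumin (Alb1) at 1190 times background on the median fed array.

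**Figure D1:**
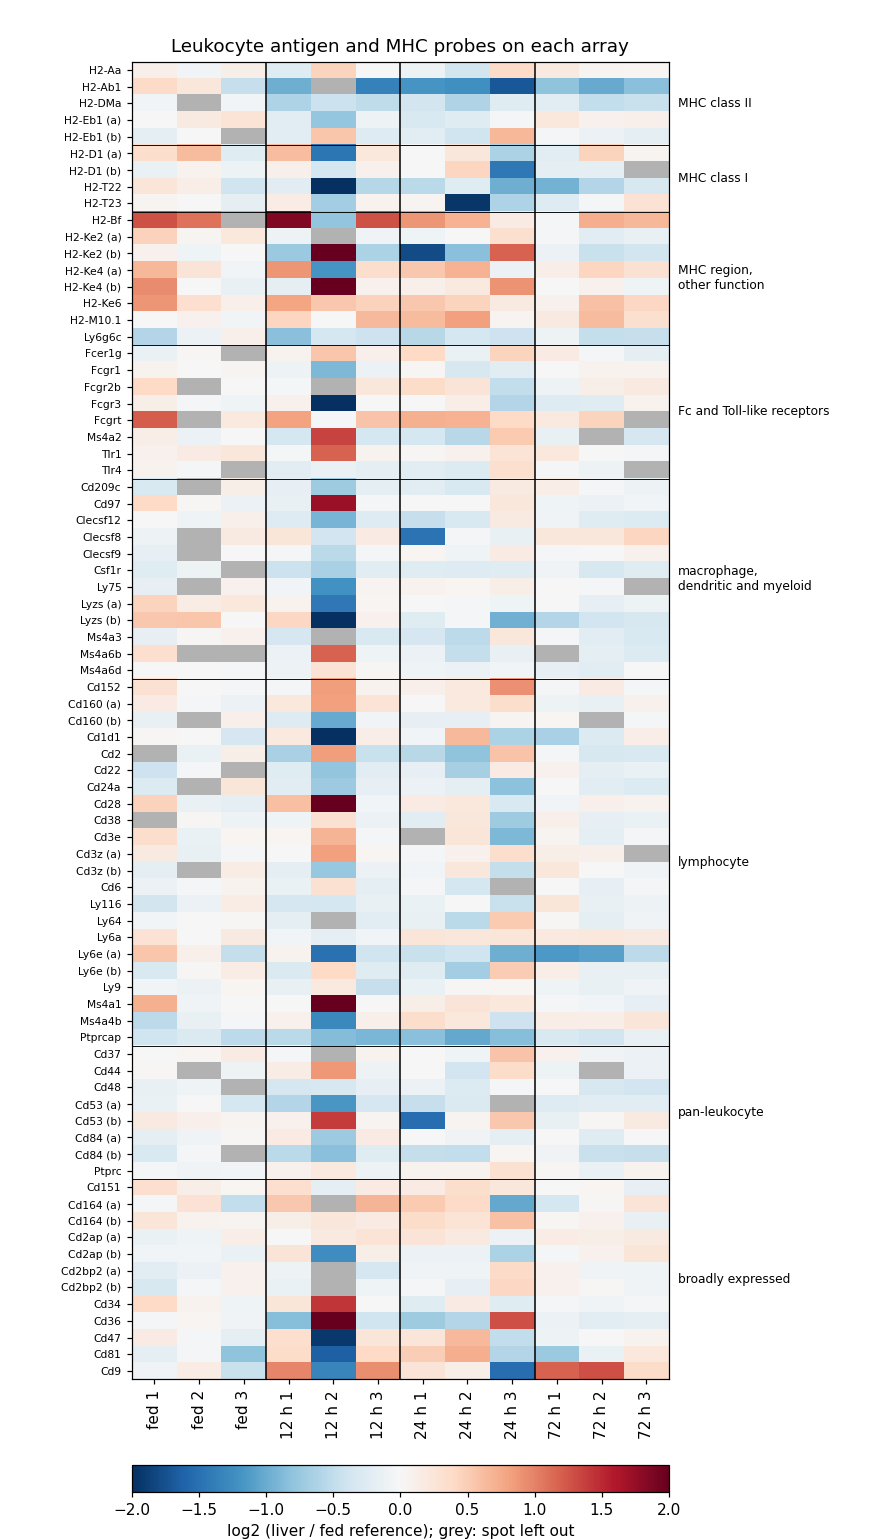
Log2 ratio of liver over fed reference for each of the 79 member probes (rows, by class) on each of the 12 arrays (columns), with the colour scale ending at -2 and 2 and outlier spots in grey. Genes with 2 probes have them marked (a) and (b). H2-Ab1 is blue on all fasted arrays with a value, and the strongest colours elsewhere lie in the columns of 12 h replicate 2 and 24 h replicate 3.

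Which of these genes changed with fasting was asked by comparing each fasted group with the fed group. The differences over the whole set were small, and more members were lower than higher. Of 78 members tested, 48 were lower than fed at 12 h, 51 at 24 h and 52 at 72 h, with median log2 fold changes of -0.10, -0.07 and -0.08. Over all probes tested the medians were -0.01, -0.00 and -0.01, and 50.8%, 50.5% and 53.4% of probes were lower. The 3 comparisons share the fed arrays. No member passed limma's test at a Benjamini-Hochberg adjusted p under 0.05 with a 1.4-fold change at any time. Few probes of any kind did: 0.00497% of all probes at 12 h, 0.00497% at 24 h, 0.00996% at 72 h, and 0% for 24 h against 12 h and 0% for 72 h against 24 h. At an unadjusted p under 0.05, with no limit on fold, the members counted 8 of 78 at 12 h, against 3.92% of all probes, 2 at 24 h, against 3.04%, and 2 at 72 h, against 1.55%. They counted 1 for 24 h against 12 h, against 0.945%, and 3 for 72 h against 24 h, against 3.42%.

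A second threshold, with the p and fold limits of the study's methods, was an unadjusted limma p under 0.01 with a 1.4-fold change. The methods do not say whether their p was adjusted, and their further condition of concordant calls across arrays was not applied. This threshold called 1 member at 12 h, 2 at 24 h and 1 at 72 h, all lower than fed. All probes passed it at rates of 0.656%, 0.641% and 0.428%. H2-Ab1 was called at all 3 times and Ptprcap at 24 h. Groups without overlap, in probes measured on all 6 arrays, were seen for 1 member higher and 6 lower of 48 at 12 h, against 12.7% of all probes in either direction. At 24 h, 2 were higher and 6 lower of 53, against 11.4%, and at 72 h, 4 were higher and 7 lower of 53, against 18.9%.

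**Figure D2:**
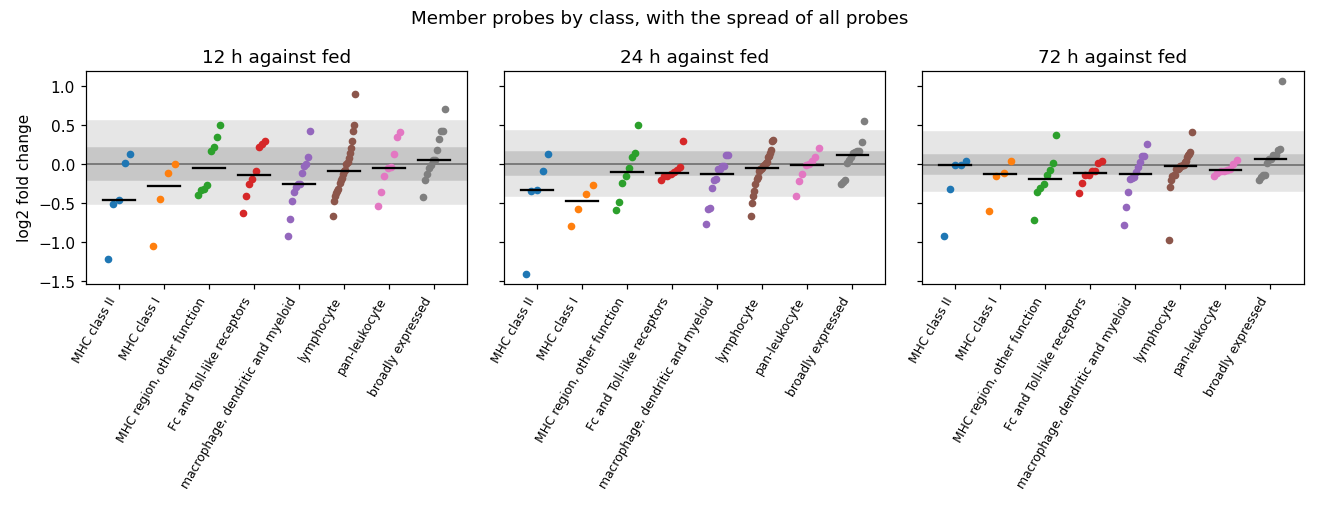
Log2 fold change against fed (vertical axis) of each tested member probe, by class (horizontal axis), at 12, 24 and 72 h. Black bars are class medians, the dark band runs from the lower to the upper quartile of all probes tested and the light band from the 5th to the 95th percentile. MHC class II and class I medians lie lowest at 12 and 24 h (-0.46 and -0.29 at 12 h, -0.34 and -0.48 at 24 h), the class I median at 12 h becoming 0.15 without both low-signal arrays, and all class medians lie between -0.20 and 0.06 at 72 h.

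Among the MHC class II genes, H2-Ab1, the beta chain of the A molecule (gene 14961), was lower after fasting. Its log2 ratio was 0.39, 0.23 and -0.46 in the fed pools. It was -0.98 and -1.36 at 12 h, where the spot of replicate 2 was left out, -1.17, -1.23 and -1.69 at 24 h, and -0.81, -1.01 and -0.83 at 72 h. Every fasted array with a value was below the lowest fed array. The group means were 0.05 ± 0.45 (SD, n = 3) in fed, -1.17 ± 0.27 (n = 2) at 12 h, -1.36 ± 0.29 (n = 3) at 24 h and -0.88 ± 0.11 (n = 3) at 72 h. Against fed this was 2.33-fold lower at 12 h, 2.67-fold lower at 24 h and 1.91-fold lower at 72 h. The log2 fold changes were -1.22 ± 0.27 (SE), -1.42 ± 0.25 and -0.93 ± 0.25, with unadjusted limma p of 0.0013, 0.00020 and 0.0036 and Benjamini-Hochberg adjusted p of 0.956, 0.654 and 0.9998. The first of the 3 quantification days held 72 h and fed arrays, and among these the difference was -0.76. On the third day, the 24 h array was 2.08 below the fed array on the log2 scale. At 72 h the level stood 0.48 above that at 24 h, which did not pass (limma, unadjusted p = 0.078). Without both low-signal arrays, H2-Ab1 was called at 12 h (log2 fold change -1.22, adjusted p = 0.026) and at 24 h (-1.25, adjusted p = 0.012), and reached an adjusted p of 0.057 at 72 h.

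The other class II genes did not move to the same extent. H2-DMa, which helps to load peptide onto class II molecules, was -0.06 and -0.06 in the 2 fed pools with a value. It was -0.62, -0.44 and -0.50 at 12 h, -0.37, -0.61 and -0.24 at 24 h, and -0.21, -0.48 and -0.44 at 72 h, so that all 9 fasted arrays were below both fed arrays. Its log2 fold changes of -0.46, -0.35 and -0.32 had unadjusted limma p of 0.024, 0.073 and 0.094. In the sample channel alone, without the reference, its log2 fold change at 72 h was -0.01. H2-Aa, the alpha chain that pairs with the product of H2-Ab1, had log2 fold changes of 0.01, -0.09 and 0.03 with an SE of 0.22. Its fed pools were at 0.10, -0.05 and 0.12 and its fasted pools lay between -0.37 and 0.44, on both sides of the fed values. The 2 probes of H2-Eb1, the beta chain of the E molecule, differed. The dimmer one, at 6.33 times background in the fed group, was -0.01, 0.18 and 0.27 in fed and -0.22, -0.77 and -0.11 at 12 h, below all fed pools. It was -0.31, -0.24 and -0.03 at 24 h, again below all of them, and 0.21, 0.08 and 0.10 at 72 h. The brighter one, at 25.6 times background, had log2 fold changes of 0.13, 0.12 and -0.01.

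**Figure D3:**
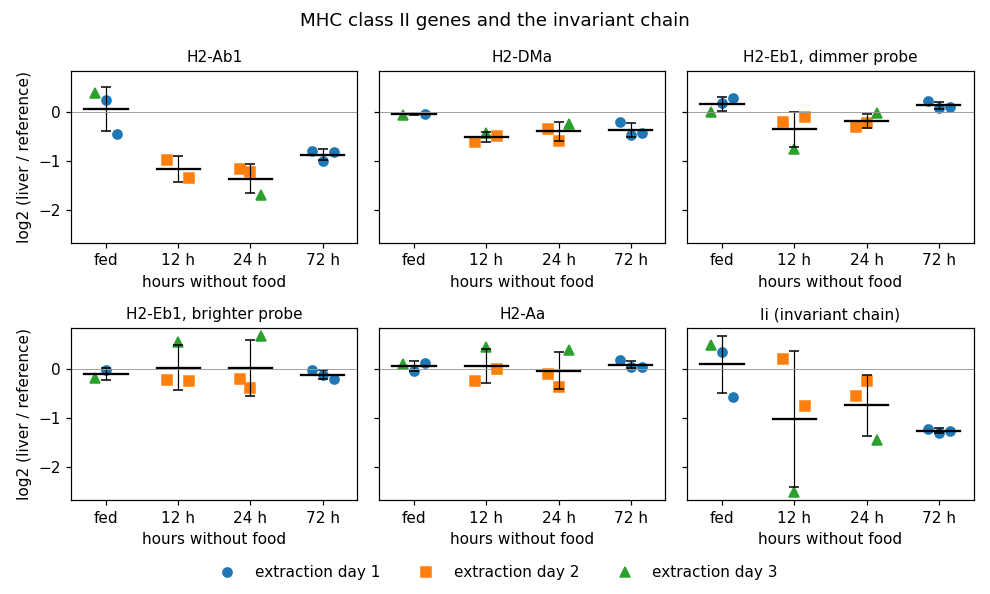
Log2 ratio of liver over fed reference (vertical axis) in fed livers and after 12, 24 and 72 h without food (horizontal axis) for the class II probes and the invariant chain. Points are arrays, with shape and colour giving the day of image quantification, bars are group means and whiskers SD. H2-Ab1 lies below its fed values on all fasted arrays with a value, and H2-Aa lies near 0 in all groups.

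The genes that serve antigen presentation but carry other names were followed as a list of 23 genes, of which 15 had a probe that was tested (17 probes). None was called by either threshold at any time. Of the 17 probes, 14 were below fed at 12 h, 10 at 24 h and 15 at 72 h, with median log2 fold changes of -0.47, -0.25 and -0.31. Of all probes tested, 50.8%, 50.5% and 53.4% were lower. The mean log2 ratio, over those of the 17 probes with a value on an array, ran from -0.12 to 0.43 on the fed arrays. It ran from -0.80, on low-signal replicate 2, to 0.16 at 12 h. At 24 h it ran from -0.31 to 0.10 and at 72 h from -0.40 to 0.04. Each fasted group thus overlapped the fed arrays. Medians of this list without both low-signal arrays were not computed. The class II invariant chain (Ii, now Cd74), which guides class II molecules to the endosome, was 0.49, 0.35 and -0.57 in the fed pools. It was -1.21, -1.31 and -1.25 at 72 h, below all of these, and its log2 fold change was -1.35, with an unadjusted limma p of 0.040 and an adjusted p of 0.9998. At 12 h its arrays ran from -2.51 to 0.21 and at 24 h from -1.44 to -0.25, so that both groups overlapped the fed pools. The immunoproteasome subunits Psmb8 and Psmb10, which cut peptides for class I, had log2 fold changes of -1.01 and -0.41 at 12 h, -0.97 and -0.68 at 24 h, and -0.75 and -0.88 at 72 h. Of these the lowest unadjusted limma p was 0.012, for Psmb10 at 72 h. Psmb10 was 1.29 and 0.31 in fed replicates 1 and 2, with no value in replicate 3, and -0.16, 0.04 and -0.13 at 72 h. For beta-2-microglobulin (B2m), the light chain of class I molecules, the values were -0.49, -0.31 and -0.69, with p of 0.17 or more. The fed pool of replicate 3 was the lowest of the fed group for H2-Ab1, Ii and B2m alike.

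The MHC class I probes were below fed at 12 and 24 h in all 4 cases, and 3 of 4 were below at 72 h. Without both low-signal arrays 1 of 4 was below at 12 h, with a median log2 fold change of 0.15, and 3 of 4 were below at 24 h. Class I genes are close copies of each other, and the second set of gene names in the files calls the H2-T22 probe H2-T9, so that these probes may read more than 1 gene. The H2-T22 probe was 0.25, 0.13 and -0.39 in fed, -0.23, -2.40 and -0.57 at 12 h, -0.54, -0.24 and -0.98 at 24 h, and -0.95, -0.58 and -0.32 at 72 h. The fasted groups overlapped the fed group through replicate 3 of the fed pools. Its log2 fold changes were -1.06, -0.58 and -0.61 with an SE of 0.48, and without both low-signal arrays the first was -0.39. The brighter H2-D1 probe was 0.36, 0.63 and -0.24 in fed and -0.22, 0.44 and 0.05 at 72 h, within the fed range. It had log2 fold changes of -0.46, -0.39 and -0.16 with an SE of 0.47, and the dimmer probe -0.00, -0.28 and -0.12 with an SE of 0.39 or more. H2-T23, the mouse counterpart of a ligand of natural killer cell receptors, was -1.94 on replicate 2 of the 24 h group and between -0.70 and 0.29 on all other arrays.

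Genes of the MHC region with other functions had median log2 fold changes of -0.06, -0.10 and -0.20, and -0.19 at 24 h without both low-signal arrays. H2-Bf, complement factor B, was at 1.27 and 1.08 in the 2 fed pools with a value, at 1.84, -0.79 and 1.28 at 12 h, and at 0.88, 0.70 and 0.16 at 24 h. At 72 h it was -0.02, 0.73 and 0.66, below both fed pools, and its log2 fold changes of -0.40, -0.60 and -0.72 had unadjusted limma p of 0.28 or more. H2-Ke2, a prefoldin subunit, was below all fed pools at 72 h on both of its probes, with log2 fold changes of -0.37 and -0.32, unadjusted limma p of 0.053 and 0.69, and an adjusted p of 0.9998 for both. A probe called H2-M10.1 in 1 set of names and Trim39 in the other was 0.00, 0.08 and -0.05 in fed and 0.18, 0.63 and 0.32 at 72 h, above all fed pools, with a log2 fold change of 0.36, an unadjusted limma p of 0.15 and an adjusted p of 0.9998.

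Macrophage, dendritic and myeloid members had median log2 fold changes of -0.26, -0.13 and -0.14, with 9, 10 and 8 of 12 probes below fed. Without both low-signal arrays the medians at 12 and 24 h were -0.13 and -0.24. Lysozyme (Lyzs, now Lyz2), a product of macrophages and granulocytes, was lower on both of its probes. The brighter probe was 0.45, 0.14 and 0.22 in fed, 0.08, -1.44 and 0.04 at 12 h, -0.02, -0.04 and -0.08 at 24 h, and -0.00, -0.16 and -0.11 at 72 h. Each fasted array was below the lowest fed array. The log2 fold changes were -0.71 ± 0.33 (SE), -0.31 ± 0.33 and -0.36 ± 0.33, and without both low-signal arrays the first was -0.21. The dimmer probe was 0.54, 0.56 and -0.01 in fed and -0.59, -0.39 and -0.31 at 72 h, again without overlap, with a log2 fold change of -0.79 ± 0.55, an unadjusted limma p of 0.18 and an adjusted p of 0.9998. Csf1r, the receptor for the growth factor on which macrophages depend, had log2 fold changes of -0.26, -0.07 and -0.04. Its 2 fed pools with a value were -0.25 and -0.10. It was -0.43, -0.64 and -0.23 at 12 h, -0.24, -0.25 and -0.24 at 24 h, and -0.08, -0.31 and -0.24 at 72 h, so that all groups overlapped the fed pools. Ms4a6b, a membrane protein of unsettled function, had log2 fold changes of 0.00, -0.57 and -0.56, but only 1 fed pool had a value. The macrophage C-type lectins Clecsf8, Clecsf9 and Clecsf12, which bind fungal and mycobacterial surfaces, had log2 fold changes at 72 h of 0.25, 0.10 and -0.20. At 12 h these were -0.03, -0.13 and -0.49, and at 24 h -0.59, 0.12 and -0.20. With arrays weighted by quality, Clecsf8 was called at 24 h, at -1.34 (limma, adjusted p = 0.0089). That setting called 10.5% of all probes at 24 h. Without both low-signal arrays Clecsf8 was at -0.79 at 24 h (limma, adjusted p = 0.170). None of the probes carried the names Emr1, Cd68, Cd14, Cd163, Itgam or Itgb2, so that the usual Kupffer cell markers are not represented by name.

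Markers of macrophages outside the naming rule were followed for comparison. Of 17 probes for 15 such genes, 13, 12 and 13 were below fed at 12, 24 and 72 h, with median log2 fold changes of -0.28, -0.18 and -0.14, and none was called by either threshold. For this and the following lists, the mean log2 ratio was taken over the probes with a value on each array. Since outlier spots were left out, the arrays did not all average the same probes. The macrophage mean was between -0.01 and 0.06 on the fed arrays. It was between -0.40 and -0.17 at 12 h, between -0.23 and -0.13 at 24 h, and between -0.14 and -0.09 at 72 h. These fasted means were below all fed means, but they do not compare the same probes. Fed replicate 2 had no value for Spic, Msr1, Cyba and both Lgals3 probes, and fed replicate 3 had none for C1qa. Whether the macrophage probes measured on every array were lower in all fasted pools is thus not shown by these means. The same mean for 14 lymphocyte probes was between -0.02 and 0.04 on the fed arrays, between -0.15 and 0.31 at 12 h, between -0.20 and -0.11 at 24 h, and between -0.15 and -0.09 at 72 h. The lymphocyte mean lay below all fed means at 24 and 72 h and overlapped them at 12 h, again over probes that differed between arrays. For 5 neutrophil probes the mean was between -0.0767 and 0.009 in fed and between -0.438 and -0.0777 at 12 h. It was between -0.20 and -0.13 at 24 h and between -0.13 and -0.11 at 72 h. The neutrophil means of the fasted arrays were below all fed means, narrowly at 12 h. Fed replicate 2, however, had values only for Prtn3 and 1 Mpo probe. That Mpo probe had a value on every array and overlapped, at -0.34, -0.07 and 0.11 in fed and -0.04, -0.28 and -0.15 at 72 h. The neutrophil means thus do not show a lower level of the same probes. For 8 endothelial probes the mean was between -0.04 and 0.28 in fed and between 0.10 and 0.20 at 72 h. For 6 stellate cell probes it was between -0.13 and 0.05 in fed and between -0.05 and -0.00 at 72 h. Probes of 6 hepatocyte genes (7 in all) stood between 0.12 and 0.43 in fed and between -0.39 and 0.15 at 72 h. For 5 cholangiocyte probes the mean was between -0.07 and 0.07 in fed and between -0.31 and 0.02 at 72 h, and for 2 erythroid probes between -0.68 and -0.04 in fed and between -0.72 and -0.24 at 72 h. At 72 h the unadjusted threshold called 1 cholangiocyte probe and 2 hepatocyte probes, all lower, and none of the other lists outside the naming rule. The part of cell composition in the results above was not tested.

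Lymphocyte members had median log2 fold changes of -0.09, -0.05 and -0.03 over 21 tested probes, and -0.01 at 24 h without both low-signal arrays. These probes were classed by name and include those of Ly64 and Ly6e, described below, which are not lymphocyte markers by their description. Ptprcap, which binds the phosphatase CD45 in lymphocytes, was lower at 12 and 24 h and not at 72 h. It was -0.40, -0.29 and -0.52 in the fed pools, -0.54, -0.87 and -0.92 at 12 h, -0.84, -1.02 and -0.85 at 24 h, and -0.31, -0.37 and -0.15 at 72 h. The 12 h and 24 h pools were all below the fed pools, and the 72 h pools overlapped them. Its log2 fold changes were -0.37 ± 0.15 (SE), -0.50 ± 0.15 and 0.13 ± 0.15, with unadjusted limma p of 0.035, 0.0079 and 0.43 and an adjusted p of 0.9999 at 24 h. In the sample channel alone the log2 fold changes at 12, 24 and 72 h were 0.35, 0.11 and 0.84, so that the lower values at 12 and 24 h hold only relative to the reference channel. The 2 probes of Ly6e, a membrane protein induced by interferon, gave different values. The dimmer one was 0.56, 0.11 and -0.47 in fed and -1.15, -1.09 and -0.52 at 72 h, with a log2 fold change of -0.98 ± 0.39, an unadjusted limma p of 0.029 and an adjusted p of 0.9998. The brighter Ly6e probe, at 183 times background in the fed group, had a log2 fold change of -0.01 at that time. Cd3e, a chain of the T cell receptor complex, was 0.35, -0.13 and 0.04 in fed and 0.06, -0.19 and -0.04 at 72 h, overlapping, with a log2 fold change of -0.15 ± 0.30. Ms4a1 (CD20), the B cell antigen, was 0.72, -0.08 and -0.01 in fed and -0.04, -0.05 and -0.16 at 72 h, also overlapping, with a log2 fold change of -0.30 ± 0.48. Ly64, which the naming rule took in, is Muc13 by its gene number, an epithelial mucin, and had a log2 fold change of -0.07 at 72 h. Ms4a4b, a T cell protein, was -0.52, -0.15 and -0.03 in fed and 0.14, 0.14 and 0.24 at 72 h, above all fed pools, with a log2 fold change of 0.41 ± 0.35.

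**Figure D4:**
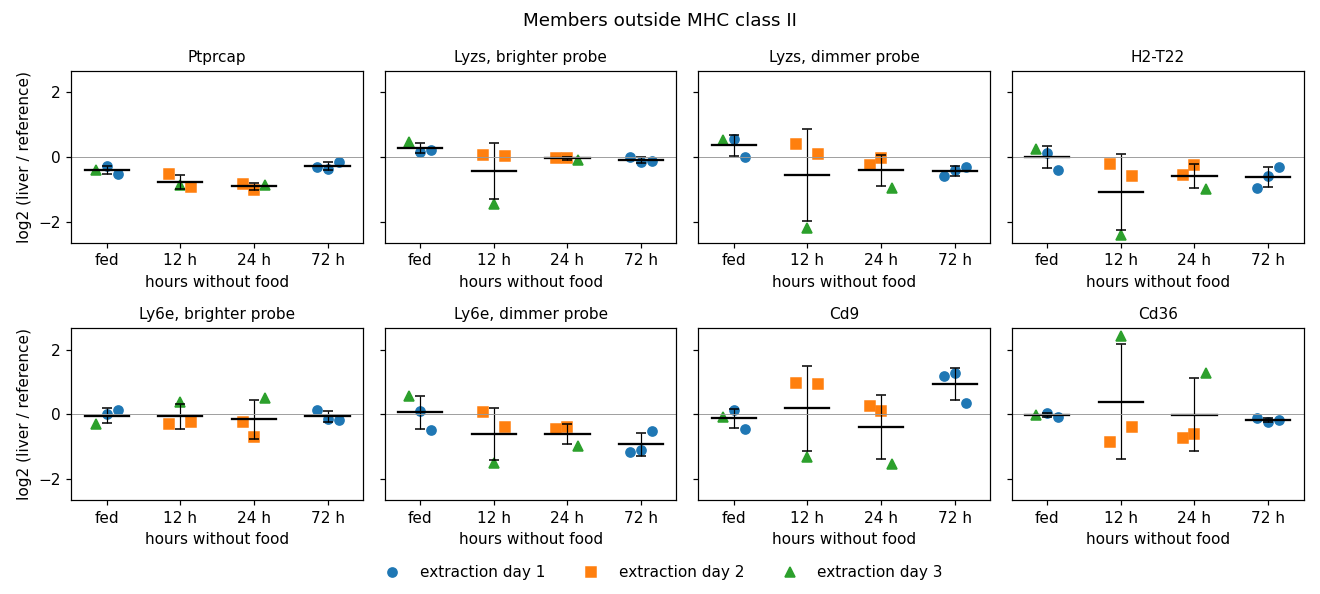
Log2 ratio of liver over fed reference (vertical axis) in fed livers and after 12, 24 and 72 h without food (horizontal axis) for members outside class II. Points are arrays, with shape and colour giving the day of image quantification, bars are group means and whiskers SD. Ptprcap lies below its fed values at 12 and 24 h (the mean differences were 0.35 and 0.11 in the sample channel alone) and among them at 72 h, both Lyzs probes are below their fed values at 72 h, and Cd9 and Cd36 on the low-signal arrays (day 3, at 12 and 24 h) lie opposite to the other arrays of their groups.

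No receptor for antibodies or microbial products passed either threshold. The 8 probes of Fc and Toll-like receptors had median log2 fold changes of -0.15, -0.12 and -0.12, and -0.06 at 24 h without both low-signal arrays, and the largest at 72 h was -0.38, for the neonatal Fc receptor Fcgrt, which hepatocytes and endothelium also make. The high-affinity receptor Fcgr1 was 0.08, 0.00 and 0.05 in fed and -0.11, -0.89 and -0.11 at 12 h, below all fed pools, with a log2 fold change of -0.41 ± 0.21, and at 72 h the difference was 0.00. Fcgr3, the low-affinity receptor of macrophages and natural killer cells, and its signalling chain Fcer1g had log2 fold changes of -0.14 and 0.03 at 72 h. At 12 h Fcgr3 stood at -0.64 ± 0.46 (SE), its lowest value being on the low-signal array, with 0.08 and 0.01 on the others. Without both low-signal arrays it was 0.04, and with a block for the day of quantification -1.65 (limma, adjusted p = 0.019). That block called 22.4% of all probes at 12 h. It ties 12 h to fed only through fed replicate 1 and both low-signal arrays. Fcgr3 was 0.12, -0.02 and -0.09 in fed and -0.26, -0.24 and 0.08 at 72 h, and Fcer1g was -0.13 and 0.02 in the 2 fed pools with a value and 0.16, -0.03 and -0.18 at 72 h, so that both overlapped. The probe of Tlr4, the receptor for bacterial lipopolysaccharide, had a log2 fold change of -0.09 at 72 h, but the second set of names places it in an intron.

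Pan-leukocyte members had median log2 fold changes of -0.05, -0.02 and -0.09 over 8 probes, and -0.14 at 24 h without both low-signal arrays, with no value beyond -0.16 at 72 h. The probes of the tetraspanin Cd53 were at -0.54 and 0.40 at 12 h and at -0.23 and -0.42 at 24 h. The second of these, listed as intronic, was called at 24 h when arrays were weighted by quality, at -1.34 (limma, adjusted p = 0.0020). That setting called 10.5% of all probes at 24 h. Without both low-signal arrays this probe was at -0.84 (limma, adjusted p = 0.118). With a block for the day of quantification it was at 0.37, so that its direction depends on the setting. Ptprc (CD45), the phosphatase on all leukocytes, was -0.04, -0.07 and -0.06 in fed. It was 0.09, 0.20 and -0.10 at 12 h, 0.07, 0.07 and 0.30 at 24 h, and 0.03, -0.14 and 0.07 at 72 h. Its log2 fold changes were 0.12, 0.21 and 0.04 with an SE of 0.14, and its signal was only 4.7 times background in the fed group. Of the members found on many cell types, the tetraspanin Cd9 was -0.07, 0.14 and -0.44 in fed and 1.17, 1.29 and 0.37 at 72 h, above all fed pools, with a log2 fold change of 1.06 ± 0.62, an unadjusted limma p of 0.12 and an adjusted p of 0.9998. Without both low-signal arrays it was 1.08 at 12 h (adjusted p = 0.049), 0.31 at 24 h and 1.06 at 72 h (adjusted p = 0.057). When a block for the day of quantification was fitted, Cd9 was at -1.06 at 12 h and -1.64 at 24 h (limma, adjusted p = 0.033), so that its direction at these times depends on the setting, whereas at 72 h it was 1.09. Under that block, 12 h and 24 h are tied to fed only through the third day, that is, through fed replicate 1 and both low-signal arrays. Cd36, which carries fatty acids and binds oxidized lipoproteins, was -0.85 and -0.40 on the 12 h arrays of replicates 1 and 3 and 2.42 on replicate 2. It was -0.72 and -0.59 on the 24 h arrays of replicates 1 and 2 and 1.28 on replicate 3. Its log2 fold changes of 0.41 and 0.01 at 12 and 24 h turned to -0.60 (adjusted p = 0.044) and -0.63 (adjusted p = 0.020) without both low-signal arrays. With the quantification day as a block they were 2.08 (limma, adjusted p = 0.0068) and 1.68 (adjusted p = 0.019), called in the opposite direction.

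Leaving out both low-signal arrays lowered the spread and raised the number of calls among all probes. At an adjusted p under 0.05 with a 1.4-fold change, limma then called 1 member higher and 2 lower of 78 at 12 h, against 2.6% of all probes, and 3 higher and 5 lower at 24 h, against 8.81%. At 72 h it called none of 78, against 0.837%. The members' shares were 3.85% at 12 h and 10.3% at 24 h, close to those of all probes. The 24 h calls were Cd81, Ms4a4b and H2-M10.1, which were higher, and H2-Ab1, Ptprcap, Cd2, Cd36 and 1 probe of H2-Ke2, which were lower. With the quantification day as a block, Cd2 (0.63), Cd36 (1.68) and this H2-Ke2 probe (1.16) were instead higher than fed at 24 h, Cd81 (-0.68) and Ms4a4b (-0.12) lower, and H2-Ab1, Ptprcap and H2-M10.1 kept their direction. These were chosen after their values were seen, since this fit was an alternative.

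Genes with 2 probes gave a check within each array. The 13 such genes had the same sign on both probes in 6 cases at 12 h, 9 at 24 h and 10 at 72 h. The median difference in log2 fold change between the probes of a gene was 0.61 at 12 h, 0.23 at 24 h and 0.05 at 72 h. At 12 h it was thus larger than the fold change of most members, and at 72 h the largest difference was 0.97, for Ly6e. Both probes of Cd84 and 1 of H2-D1 were listed as unknown in the second set of names, 1 probe of Cd53 as intronic, and 1 of Cd3z and 1 of Cd164 as possibly on the wrong strand, so that which transcript they read is uncertain.

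**Figure D5:**
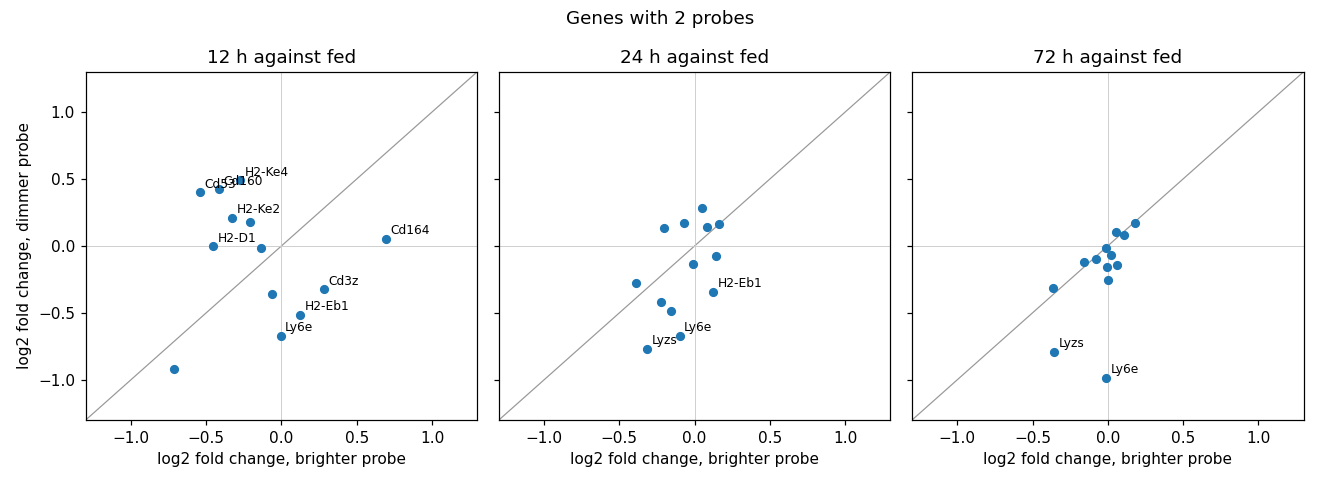
Log2 fold change against fed of the brighter (horizontal axis) and the dimmer probe (vertical axis) of the 13 genes with 2 probes, at 12, 24 and 72 h, with the line of equal values. Names are given where the probes differ by more than 0.4. The probes lie widely off the line at 12 h, and at 72 h all but Lyzs and Ly6e lie near it.

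Between the fasted groups, no member passed the adjusted threshold. At an unadjusted p under 0.01 with a 1.4-fold change, limma called no member for 24 h against 12 h, against 0.0447% of all probes, and 1 for 72 h against 24 h, against 0.503%. That member was Ptprcap, which was 0.63 ± 0.15 (SE) higher on the log2 scale at 72 h than at 24 h (1.54-fold), with an unadjusted limma p of 0.0019 and an adjusted p of 0.9999. The median log2 difference of the members was 0.08 for 24 h against 12 h and -0.02 for 72 h against 24 h, against 0.02 and -0.01 over all probes.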

How the data were processed

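The 12 arrays were read one by one. Per the file headers, the deposited intensity values give every spot's median brightness and that of the background around it, as quantified by Agilent Feature Extraction without normalization, and the deposited log10 ratios are the software's background-subtracted, dye-normalized ratios of reference over sample. The deposited value table holds the same log10 ratios with the sign turned (largest difference 4.98e-08 over 257352 values). The authors subtracted background, normalized by quantiles and tested by Split-Factor ANOVA within and across arrays. Whether arrays of a group came from separate experiments beyond separate pools is not given in the sources used here. 

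Here 1075 control and 91 retired spots were left out of 21446. Medians were corrected with normexp (offset 50), quantile-normalized over 24 channels, and turned into log2 ratios of sample to reference. The offset draws the ratios of dim spots toward 0. Outlier spots were set to missing, which took 24.7% of the probes on fed replicate 2 and 14.1% on fed replicate 3. A probe was tested where 1 or more groups had its sample signal well above background on each of their arrays. A single estimate of the spread served all 4 groups in limma 3.58.1 (R 4.3.3, lmFit and eBayes), and p-values were adjusted over all probes tested. The dyes were never exchanged, so a dye effect of a probe cancels between groups. The number of arrays limits the precision.

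The files carry 2 sets of gene names, 1 on 9 arrays and 1 on the 3 arrays of the third day, which differ at 13551 probes. Members fit the naming rule in either set, in both for 58 of 79 probes. 1 of them, called Ly116 in the second set, was too dim to be tested. Names were brought to current symbols by gene number or symbol for 77 probes. Genes given by array were members called at either threshold, a fixed list of 35 cell and MHC markers, and in each class the 3 largest mean changes among members whose groups did not overlap. Members outside these, such as H2-T22, H2-Bf and the brighter Ly6e probe, were added after their values were seen. The members, classes and lists were chosen with earlier results of these data known. Replicate numbers mark different animals in each group and were not used to pair the arrays in the main fit.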

Additional observations from a re-analysis of the deposited data

Results flagged for a closer look

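Ptprcap differed between 2 times of fasting by a direct test of the difference: its log2 ratio was 0.63 higher at 72 h than at 24 h, a 1.54-fold difference with an unadjusted limma p of 0.0019. It was higher on all 3 arrays at 72 h than on all 3 at 24 h. The Benjamini-Hochberg adjusted p from limma over all probes was 0.9999. No quantification day held both groups. With the day as a block, which ties them through the fed arrays, the difference was 0.65 (limma, adjusted p = 0.146), and without both low-signal arrays it was also 0.65.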

How the results depend on the processing

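Of 279 alternative counts and medians, 258 stayed within the spread between arrays or within 1.5 times of the count reported, and 21 did not. The count of members called at the adjusted threshold, 0 in each comparison, stayed at 0 without any single array (0 to 0) and with the replicate block. It was 5, 9 and 5 against fed at 12, 24 and 72 h, 2 for 24 h against 12 h and 4 for 72 h against 24 h when arrays were weighted by their quality, where 9.53%, 10.5%, 4.11%, 0.9% and 4.26% of all probes were called. It was 3 and 8 at 12 and 24 h without both low-signal arrays, and 19, 10 and 4 (12 h, 24 h, and 72 h against 24 h) with the quantification day as a block, where 22.4%, 11.5% and 10.6% of all probes were called. At the unadjusted threshold it was 1, 2 and 1 against fed and 1 for 72 h against 24 h. The median log2 fold change at 24 h was -0.12 from the scanner software's ratio, -0.0053 in the sample channel alone and -0.11 without both low-signal arrays. At 72 h it was -0.0149 in the sample channel alone, and for 72 h against 24 h it was 0.0515 from the software's ratio. Without each array in turn the medians ran from -0.19 to -0.05 at 12 h, -0.113 to -0.0511 at 24 h, -0.115 to -0.0635 at 72 h, -0.01 to 0.11 for 24 h against 12 h and -0.04 to -0.01 for 72 h against 24 h. Cd36 reversed, to -0.66 and -0.67 at 12 and 24 h with array weights and to -0.60 and -0.63 without both low-signal arrays, whereas the day block called it higher, at 2.08 and 1.68. H2-Ab1 was negative against fed in every alternative, from -2.05 to -1.03 at 12 h, -2.08 to -0.94 at 24 h and -1.19 to -0.76 at 72 h. Of 18 pairs of arrays with the same replicate number in different groups, 6 had deviations that correlated over 0.1 (r from -0.645 to 0.633). The deviations are from means of 3 arrays and include both low-signal arrays, so they cannot show whether the numbers pair arrays. With the replicate block H2-Ab1 was -1.42 at 24 h (limma, adjusted p = 0.707), and the medians were -0.10, -0.08 and -0.08 against fed. Array weights and the restriction to members at 3 times background or more were among the settings tried, the latter and both restrictions to 1 set of names being chosen after seeing the data. The causes were not tested.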
